A study of Homo sapiens with 6 samples.

Results

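Kallikreins are secreted serine proteases encoded side by side in a cluster on the long arm of chromosome 19. In stratified squamous epithelium, such as skin and oral mucosa, they cut the proteins that hold cells together and activate one another in a cascade. Some Kazal-type inhibitors, among them those encoded by SPINK5 and SPINK6 on chromosome 5, bind active kallikreins and hold this proteolysis in check. The genes described here are 8 kallikreins (KLK5, KLK6, KLK7, KLK8, KLK10, KLK11, KLK13, and KLK14) and 2 inhibitors (SPINK5 and SPINK6). Every probe that the scanner files assign to these 10 genes was taken, which gave 15 of the 50599 probes on the array outside the controls.

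The arrays compare knockdown of the long noncoding RNA DLEU1 with a control in HSC-3, KON, and Ca9-22, established cell lines from oral squamous cell carcinoma (OSCC). Each line was transfected with a small interfering RNA against DLEU1 (siDLEU1-2) or with a universal negative control siRNA (siCtrl). RNA was taken after 72 h, and 1 one-color Agilent array was hybridized with each of the 6 samples. The sample labels name the siRNA only by its target, and the study's account of its microarrays calls it siDLEU1-2. All 6 arrays were on 1 slide. A change within a line therefore rests on 1 array against 1 array, and the 3 lines are the only replicates of the knockdown. The labels do not say whether the 2 arrays of a line come from separate cultures. In fits with the line as a term, p-values measure how the change differs between the 3 lines. With no repeat within a line, that spread mixes differences of the lines with technical error, and these cannot be told apart.

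Levels are given as a scaled signal, which is the processed signal of a probe after each array was set to the same 75th percentile (234.8 for all arrays). A probe is called well above background where the scanner software marked at least 50% of its usable spots so. The lowest signal well above background was between 16.3 and 24.0 on the 6 arrays, and a value under it has no reliable order. Where a signal is said to go from one value to another, the siCtrl array comes first. A signal is compared only between arrays, since the brightness of different probes is not on a common scale. The DLEU1 probe, which checks the labels, went from 616 to 35.9 in HSC-3 cells, 1050 to 84.3 in KON cells, and 691 to 63.8 in Ca9-22 cells (mean log2 fold change, -3.72 ± 0.34, SD, n = 3 cell lines; limma adjusted p = 0.0227). All 10 squamous epithelial markers and all 7 leukocyte and endothelial markers examined were well above background on some array. Of 7 fibroblast markers, COL1A1 was above background on all 6 arrays, DCN on 1, and COL1A2, COL3A1, LUM, PDGFRB, and THY1 on none.

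The sequences below show what was introduced into the cells and what the arrays read. The antisense strand of siDLEU1-2 is printed 5′ to 3′ with its seed, bases 2 to 8, in capitals.
siDLEU1-2, antisense strand: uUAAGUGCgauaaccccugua
The complement of this seed, GCACTTA, was in 0 of the 15 probe sequences of the kallikreins and their inhibitors, against 57 of the 19956 probes tested for the knockdown (0.286%). A probe holds only 60 bases of its transcript, so this says nothing of the other bases. The first 30 bases of the probes that the results turn on follow, because both KLK6 probes and both measurable SPINK5 probes are compared below.
KLK5: accaagtggatccaggaaaccatccaggcc
KLK6, 3′ probe: gacatacatggaatagcacctgggccacca
KLK6, 5′ probe: gaagcataaccttcggcaaagggagagttc
KLK8: ctataccaacatctgccgctacctggactg
KLK10: ataggagtccacttttggtcatccagtccc
SPINK5, middle probe: aaaggatttaaagcctgtctgtggtgacga
SPINK5, 3′ probe: acatttccaccaagtttgagccctcaaaat
Over 267 pairs of probes from different genes, among the 24 probes of all kallikreins and of SPINK5 and SPINK6, the longest run of bases that a pair shared was 9. The probes of the 8 kallikreins are on the minus strand of chromosome 19 (hg19), and the SPINK probes are on the plus strand of chromosome 5. Whether a probe lies in an exon or a UTR was not looked up, as no annotation of hg19 was used here.

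KLK5, KLK6, KLK8, KLK10, and KLK13 were each over 2-fold higher after siDLEU1-2 in 1 or 2 of the lines, none of the 8 kallikreins was over 2-fold lower in a line, and no knockdown change of these genes passed the test over the 3 lines. In whole cultures, a change in the share of cells that express a gene and a change in its RNA per cell cannot be told apart. The 10 genes were not equally measurable. Of the 15 probes, 4 (both KLK6 probes, KLK8, and the 3′ SPINK5 probe) were well above background on all 6 arrays. KLK14, which encodes a trypsin-like protease that can activate KLK5, was above background on no array, with signals from 4.49 to 13.7. SPINK6, an inhibitor of several kallikreins, was likewise above background on none, with signals from 3.43 to 5.04. The same held for a KLK13 probe that the files assign to an Ensembl transcript (signals from 3.95 to 7.10) and for the 5′ SPINK5 probe (4.0 to 9.02). The remaining 7 probes were above background on 1 to 4 arrays.

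**Figure D1:**
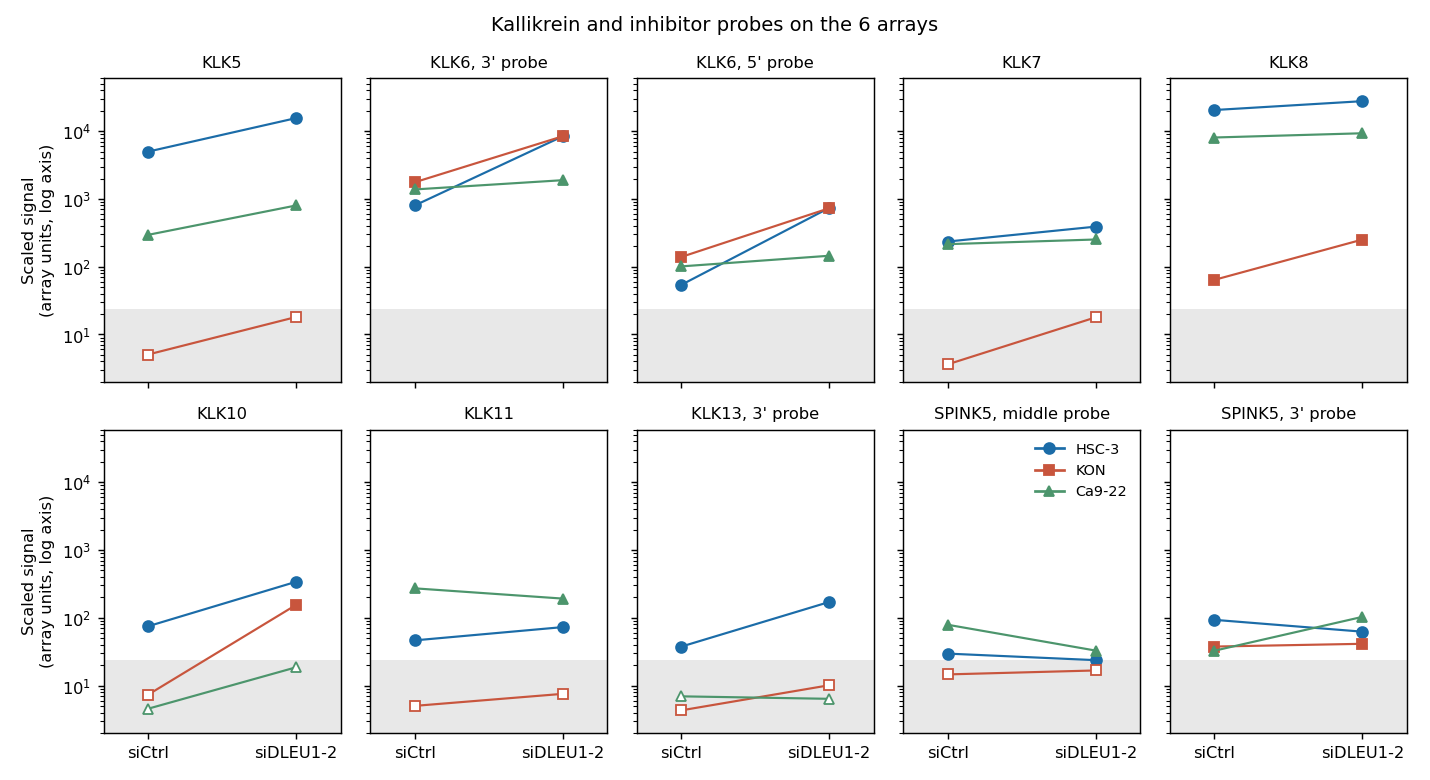
Scaled signal (log axis, array units) of the 10 probes well above background on at least 2 arrays, after siCtrl (left) and siDLEU1-2 (right), with 1 point per array joined within each line. Filled symbols are well above background, open symbols are not, and the gray band ends at 24.0, the highest of the arrays' detection limits; KLK5 and KLK8 separate KON from the other lines, while the KLK6 lines lie close together after siCtrl.

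KLK6 encodes a trypsin-like protease first known from the nervous system and frequently expressed in carcinomas. Its 3′ probe (chr19:51461888-51461947, hg19) went from 800 to 8380 in HSC-3 cells, 1760 to 8400 in KON cells, and 1380 to 1890 in Ca9-22 cells. The 3 siDLEU1-2 signals were all above the 3 siCtrl signals, and Ca9-22 moved least. The signal was thus 10.5-fold higher for HSC-3, 4.78-fold higher for KON, and 1.37-fold higher for Ca9-22. The 5′ probe (chr19:51466725-51466784), which reads a different stretch of the same transcript, went from 53.8 to 737 in HSC-3 cells, 139 to 729 in KON cells, and 101 to 145 in Ca9-22 cells. Its folds were 13.7, 5.26, and 1.44, in the same order of lines as for the 3′ probe. Over the 3 lines the mean log2 fold change was 2.03 ± 1.48 for the 3′ probe and 2.23 ± 1.63 for the 5′ probe (SD, n = 3 cell lines). In limma, neither passed after adjustment over 19956 probes (adjusted p = 0.0985 and 0.0986, and unadjusted p = 0.0184 and 0.0185). Without Ca9-22, both probes were over 2-fold higher in each remaining line, and the smaller of their adjusted p-values was 0.0505 in limma (means of 2.82 and 3.09). Without HSC-3 the means were 1.36 for the 3′ probe and 1.46 for the 5′ probe (limma adjusted p = 0.227 and 0.216), and without KON they were 1.92 and 2.15 (adjusted p = 0.272 and 0.268).

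KLK8 encodes neuropsin, a trypsin-like protease of epidermis and brain. Its probe (chr19:51499316-51499375) went from 20500 to 27700 in HSC-3 cells, 63.8 to 251 in KON cells, and 8060 to 9310 in Ca9-22 cells. The signal in KON lay far below both other lines and had the widest difference, 3.94-fold higher, against 1.35-fold in HSC-3 and 1.15-fold in Ca9-22. The mean log2 fold change was 0.87 ± 0.96 (SD, n = 3 cell lines), and limma did not call it (adjusted p = 0.218). The mean was 0.32 without KON, 1.09 without HSC-3, and 1.21 without Ca9-22 (limma adjusted p from 0.203 to 0.357).

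KLK5 encodes the trypsin-like protease that starts the epidermal cascade by activating KLK7 and other kallikreins. Its probe (chr19:51446866-51446925) gave 4990 and 15600 in HSC-3 and 295 and 801 in Ca9-22, 3.12-fold and 2.71-fold higher after siDLEU1-2. In KON neither array was well above background (5.06 and 18.1), so no fold is given there. KLK7, a chymotrypsin-like protease that cuts corneodesmosomes, was read by a probe at chr19:51480677-51480736. Its signal was 235 and 390 in HSC-3 and 215 and 252 in Ca9-22, 1.66-fold and 1.17-fold higher after siDLEU1-2. KON was below background on both arrays for KLK7 as well (3.62 and 17.9).

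KLK10, also known as NES1, was described as a gene of normal epithelial cells that is silenced in some carcinomas. Its probe (chr19:51516031-51516090) went from 75 to 340 in HSC-3 cells, 4.54-fold higher. In KON the signal was not well above background after siCtrl (7.34) and 155 after siDLEU1-2, which is at least 9.5-fold higher. The bound sets 155 against the lowest signal well above background on the siCtrl array. Ca9-22 was below background on both arrays (4.55 and 18.6).

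Neither KLK11 nor KLK13 was measurable in every line. KLK11, a trypsin-like protease of epidermis, prostate, and brain, was read by 10 spots per array (chr19:51525626-51525685). Its signal went from 46.4 to 72.8 in HSC-3 (1.57-fold higher) and from 272 to 192 in Ca9-22 (1.42-fold lower). Within an array the SD of its usable spots was 0.0557 to 0.0876 on the log2 scale in these lines (7 to 9 spots), so both changes exceed the error within an array, which is not the error between cultures. In KON, KLK11 was below background on both arrays (5.01 and 7.54). KLK13, a trypsin-like protease of oral and esophageal epithelium, was above background in HSC-3 and in no other line. Its 3′ probe (chr19:51561850-51561909) gave 37.5 and 171 there, 4.56-fold higher after siDLEU1-2. Its 5′ probe, whose 60 bases span 399 bases of the genome (chr19:51563316-51563714), gave 17.0 without being well above background and then 46.2, at least 2.36-fold higher.

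**Figure D2:**
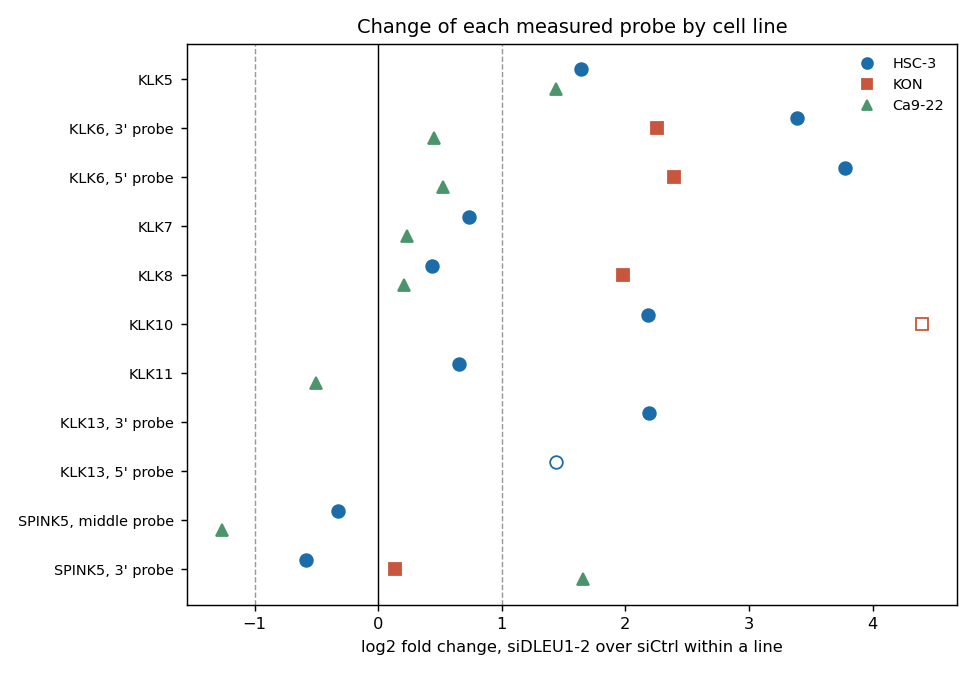
Log2 fold change (siDLEU1-2 over siCtrl) of each probe of the 8 chosen kallikreins and of SPINK5 in the lines where at least 1 of its 2 arrays was well above background, with 1 symbol per line. Open symbols have 1 dim array and their position is not a bound, and dashed lines mark 2-fold; KLK symbols lie to the right of 0 except KLK11 in Ca9-22, and the SPINK5 probes lie on both sides.

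SPINK5 encodes LEKTI, the multidomain inhibitor of KLK5, KLK7, and KLK14 whose loss causes Netherton syndrome, a skin barrier disease. Its 2 measurable probes did not move together. The 3′ probe (chr5:147516758-147516817) went from 93.3 to 62.4 in HSC-3 cells, 37.6 to 41.3 in KON cells, and 32.6 to 103 in Ca9-22 cells. It was 1.49-fold lower in HSC-3, 1.10-fold higher in KON, and 3.16-fold higher in Ca9-22, and the mean was 0.41 on the log2 scale (limma adjusted p = 0.596). The middle probe (chr5:147510878-147510937), which the files assign to a different transcript of the gene, gave 29.6 and 23.7 in HSC-3 and 78.9 and 32.8 in Ca9-22. It was 1.25-fold lower in HSC-3 and 2.41-fold lower in Ca9-22, so the probes moved in opposite directions in Ca9-22. In KON the middle probe was below background on both arrays (14.6 and 16.7). The 5′ probe lies at chr5:147504419-147504478, and SPINK6 was read at chr5:147594478-147594537. With normexp background correction the log2 fold changes in Ca9-22 were 0.75 for the 3′ probe and -0.64 for the middle probe, both under 2-fold.

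In the limma fit for the knockdown, 4 of the 15 probes could be tested, and 0 were called at an adjusted p of 0.05, against 8.5% of all 19956 probes tested. At an unadjusted p of 0.05, limma passed 2 of the 4, both for KLK6, against 29.5% of all 19956 probes. None of the 4 was over 2-fold higher in all 3 lines, against 2.08% of all probes. The filter for this fit requires a signal in every line, so KLK5, KLK7, KLK10, KLK11, and KLK13 did not enter it. When any 2 of the 6 arrays well above background sufficed instead, which was chosen after the data were seen, 10 of the 15 probes were tested and limma again called 0 of them, at an unadjusted p of 0.05 passing 4 (KLK5, KLK10, and both KLK6 probes), against 24.8% of all probes. In that fit the mean for KLK5 was 1.64 on the log2 scale (adjusted p = 0.0574) and that for KLK10 was 2.87 (adjusted p = 0.083), and limma called 0 of all 24517 probes. These means include KON and Ca9-22 values below background.

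Within single lines, where there is no test, changes over 2-fold can be counted. In HSC-3, 11 of the 15 probes had at least 1 array well above background, and 6 of these were over 2-fold higher (KLK5, both KLK6 probes, KLK10, and both KLK13 probes), while 0 were over 2-fold lower. Over all probes measured in HSC-3, 10.2% were over 2-fold higher and 8.93% were over 2-fold lower. In KON, 5 probes were measured, of which 4 were over 2-fold higher (both KLK6 probes, KLK8, and KLK10) and 0 were over 2-fold lower, against 9.8% and 9.2% of all probes. In Ca9-22, 8 probes were measured, with 2 over 2-fold higher (KLK5 and the 3′ SPINK5 probe) and 1 over 2-fold lower (the middle SPINK5 probe), against 9.61% and 9.86%. The median log2 fold change of the measured probes was 1.44 for HSC-3, 2.26 for KON, and 0.34 for Ca9-22, and that of all probes was 0.001, 0.022, and -0.013. The median probe in HSC-3 is the 5′ KLK13 probe, dim after siCtrl, and the median was 1.24 with dim values raised to the detection limit. With normexp background correction, the counts over 2-fold higher were 5 for HSC-3, 4 for KON, and 1 for Ca9-22, 0 were over 2-fold lower, and the median for HSC-3 was 0.60. Under that correction the log2 fold change was 2.55 in place of 3.78 for the 5′ KLK6 probe and 1.56 in place of 2.18 for KLK10 in HSC-3 cells, 1.08 in place of 2.19 for the 3′ KLK13 probe there, and 1.22 in place of 1.98 for KLK8 in KON cells. For the values given as bounds, which hold for the processed signal alone, it was 1.78 for KLK10 in KON cells and 0.43 for the 5′ KLK13 probe in HSC-3 cells. The probes of HSC-3 and KON include the only ones that passed through a dim siCtrl array, KLK10 in KON and the 5′ KLK13 probe in HSC-3, which had to be higher to be counted.

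Levels were also compared between the lines. For this comparison both arrays of a line were used, with the siRNA as a term in limma, and 10 of the 15 probes were tested in each of 3 pairs of lines. The call share over all 24517 probes tested was 34.4% for HSC-3 against KON, 34.6% for HSC-3 against Ca9-22, and 33.0% for KON against Ca9-22. Of the 10 probes, 5, 4, and 5 were called, which is near those shares, so the counts show nothing particular to these genes. KON had the lower level in all 10 called contrasts that involve it. Except for KLK8, the probes of these contrasts were below background on both KON arrays and entered the fit through other lines. KON therefore had to be the lower line for them, and only the KLK8 contrasts could have gone either way.

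KLK5 fell into 3 separate levels. Its level in HSC-3 was 18.1-fold above that in Ca9-22 (limma adjusted p = 0.00237), at least 482-fold above that in KON (adjusted p = 0.0019), and the level in Ca9-22 was at least 26.6-fold above that in KON (adjusted p = 0.00144). KLK11 also had 3 levels, but with the first places exchanged. Ca9-22 was 3.93-fold above HSC-3 (limma adjusted p = 0.022) and at least 12.5-fold above KON (adjusted p = 0.00358), and HSC-3 was at least 3.17-fold above KON (adjusted p = 0.00872). The probes of KLK5 and KLK11 entered this fit through the HSC-3 and Ca9-22 arrays alone. KON had to be lower for both, so their calls against KON are a description.

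KLK8 was 188-fold higher in HSC-3 than in KON (limma adjusted p = 0.0038) and 68.4-fold higher in Ca9-22 than in KON (adjusted p = 0.0048). Both HSC-3 arrays also lay above both Ca9-22 arrays for KLK8 (2.75-fold higher), but this difference did not pass after adjustment (limma adjusted p = 0.087). KLK7 had the same order, at least 16.5-fold and 12.7-fold above KON (limma adjusted p = 0.0081 and 0.00903), with HSC-3 and Ca9-22 1.3-fold apart (adjusted p = 0.613). As for KLK5, both KON arrays were below background for KLK7, so its calls against KON are a description. KLK13 was higher in HSC-3 than in KON by at least 4.38-fold and than in Ca9-22 by at least 3.52-fold (limma adjusted p = 0.0183 and 0.0178). Its probe entered this fit through the 2 HSC-3 arrays alone, so it had to be higher there and these calls are a description. KLK10 was at least 7.01-fold higher in HSC-3 than in Ca9-22 (limma adjusted p = 0.0173), which is likewise a description, since without the HSC-3 arrays its probe would not have entered the fit. Its difference between HSC-3 and KON did not pass (limma adjusted p = 0.0653), and no fold is given because the siCtrl array of KON was below background.

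The size of these differences depends on the background correction, and the bounds hold for the processed signal alone. With normexp, the log2 difference from KON in HSC-3 cells was 6.75 for KLK5, 6.63 for KLK8, 2.40 for KLK7, 1.17 for KLK13, and 0.84 for KLK11. The log2 difference KON minus Ca9-22 was -3.02 for KLK5, -5.59 for KLK8, -2.07 for KLK7, and -2.01 for KLK11. HSC-3 minus Ca9-22 was then 1.89 for KLK10, 1.08 for KLK13, and -1.18 for KLK11 (-1.98 without normexp). All of these remained called by limma. On the siCtrl arrays alone, which allow no test, KLK8 was 8.33 higher in HSC-3 than in KON on the log2 scale, against 7.56 over both arrays, and KON minus Ca9-22 was -6.98, against -6.10. On the same arrays KLK13 in HSC-3 minus Ca9-22 was 2.44, against 3.59, KLK7 was 6.02 in HSC-3 minus KON and -5.89 in KON minus Ca9-22, against 5.23 and -4.85, and the middle SPINK5 probe in KON minus Ca9-22 was -2.43, against -1.70.

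KLK6 was the only kallikrein above background in all 3 lines on all arrays besides KLK8, and no pair of lines was called for it. The differences in its level between lines were 1.48-fold to 2.63-fold over both probes, with limma adjusted p-values from 0.246 to 0.575. The middle SPINK5 probe was at least 2.78-fold higher in Ca9-22 than in KON (limma adjusted p = 0.0388). This call was lost with normexp (limma adjusted p = 0.066) and with no filter on dim probes (adjusted p = 0.081). The 3′ SPINK5 probe had no called contrast (adjusted p from 0.258 to 0.615 in limma). The 2 arrays of a line carry different siRNAs, and the standard error of a line difference was 0.74 and 0.81 on the log2 scale for the KLK6 probes, against 0.20 for KLK5.

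The kallikrein cluster allows a look at position. All 20 kallikrein probes, of 15 genes, lie within 258.9 kb (chr19:51322447-51581312), and 29 probes of other genes lie among them or within 250 kb on either side. One of these, for the pseudogene KLKP1, lies inside the cluster and was above background on no array. Of the 29, 9 were tested for the knockdown, and limma called 1 (the noncoding transcript XLOC_l2_007097, which fell by 0.71 on the log2 scale, adjusted p = 0.0483), against 8.5% of all probes. Like every other call, this call was lost under each setting in which limma called 0 of all probes, among them those without HSC-3 and without KON. The median of the mean log2 fold changes of the tested neighbors was -0.03. In HSC-3, 2 of 11 measured neighbors were over 2-fold higher, in KON 0 of 15, and in Ca9-22 0 of 11, while 0, 2, and 0 were over 2-fold lower, beside the shares of 8.93% to 10.2% over all probes given above. The median log2 fold change of the flanking probes was 0.08 for HSC-3, -0.36 for KON, and -0.03 for Ca9-22.

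Of the other 7 kallikrein genes of the cluster, KLK9, which lies between KLK8 and KLK10, was the only one tested. Its probe (chr19:51506045-51506104) went from 2850 to 1640 in HSC-3 cells, 223 to 180 in KON cells, and 45.0 to 19.6 in Ca9-22 cells, the last not well above background. It was lower after siDLEU1-2 in 3 of 3 lines, by a mean of -0.77 ± 0.44 on the log2 scale (SD, n = 3 cell lines), and limma did not call it (adjusted p = 0.0939). In HSC-3, KLK4, known for its part in enamel formation, was 3.86-fold higher (31.0 and 120), and KLK1, the tissue kallikrein that releases kinins, was 2.29-fold lower (102 and 44.7). KLK1 was 1.09-fold lower in Ca9-22 (47.0 and 43.0).

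**Figure D3:**
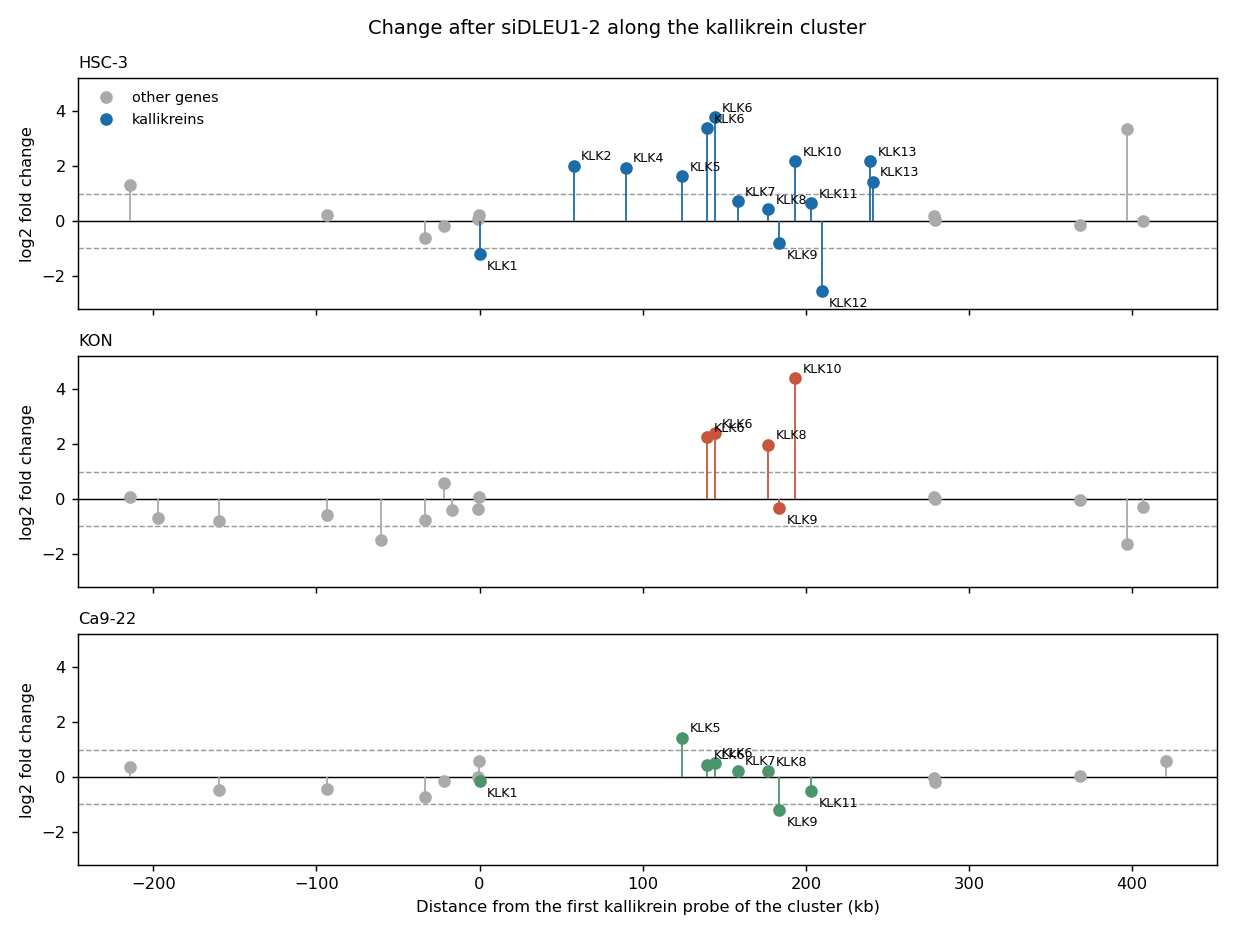
Log2 fold change (siDLEU1-2 over siCtrl) in each line against the distance in kb from the first kallikrein probe, for probes with at least 1 array of that line well above background. Colored points are kallikreins, gray points are other genes, and dashed lines mark 2-fold; several values with a dim array, such as KLK12 and KLK2 in HSC-3 and KLK10 in KON, are drawn as measured, and KLK9 lies below 0 in all 3 lines.

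Promoter windows from RefSeq (GRCh38.p14) were available for 9 of the 10 genes, in 17 windows of 250 bases before to 50 bases after a transcription start. KLK8 has no entry. Of the 4 kallikreins over 2-fold higher in HSC-3 after siDLEU1-2, KLK6 and KLK5 have 1 window each and are shown, while KLK10 and KLK13 have 2 each and are not. Each is the 250 bases before the start, on the minus strand, with GC boxes (GGGCGG, searched on both strands) in capitals.
KLK6, chr19:50969592-50969841: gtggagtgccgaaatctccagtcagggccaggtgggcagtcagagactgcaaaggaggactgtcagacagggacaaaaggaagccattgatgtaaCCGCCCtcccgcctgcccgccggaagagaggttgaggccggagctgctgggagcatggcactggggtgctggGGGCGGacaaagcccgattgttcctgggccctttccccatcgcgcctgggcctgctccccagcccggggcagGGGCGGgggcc
KLK5, chr19:50953039-50953288: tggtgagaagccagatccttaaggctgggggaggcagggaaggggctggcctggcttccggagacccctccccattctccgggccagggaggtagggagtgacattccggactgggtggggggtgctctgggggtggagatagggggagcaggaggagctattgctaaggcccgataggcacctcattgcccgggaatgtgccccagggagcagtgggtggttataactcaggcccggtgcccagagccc
The KLK6 window has 3 GC boxes and the KLK5 window has none. Over all member windows, 9 of 17 held a GC box (KLK6, KLK7, KLK11, KLK13, and KLK14), against 45.0% of the 35116 windows in the table. The AP-1 letters TGANTCA were found for SPINK6 alone (7.71% of all windows), and the TATA letters TATAAA for SPINK5 alone (11.5%). These matches are descriptions of the letters, not of binding.

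The genes that act with kallikreins in epithelium were read from lists of related proteases, inhibitors, and substrates. Over all 19956 probes, limma called 795 higher and 902 lower, with a median of the mean log2 fold changes of 0.01. Among other inhibitors of epithelial serine proteases, 11 probes were tested, 2 were called higher and 0 lower, and the median was 0.96. Both called genes are Kunitz-type inhibitors at the cell surface that restrain matriptase and prostasin. SPINT1 went from 2220 to 5700 in HSC-3 cells, 2850 to 5770 in KON cells, and 2030 to 4240 in Ca9-22 cells, with all siDLEU1-2 signals above all siCtrl signals (mean log2 fold change, 1.15 ± 0.19, SD, n = 3 cell lines; limma adjusted p = 0.0297). SPINT2 rose by a mean of 0.96 on the log2 scale (limma adjusted p = 0.0343), just under 2-fold. PI3, which encodes the elastase inhibitor elafin, went from 81.7 to 2010 in HSC-3 cells, from 288 to 245 in KON cells, and from a dim 20.9 to 68.1 in Ca9-22 cells, and limma did not call it (adjusted p = 0.232). It is named here after its values were seen.

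Among other epithelial serine proteases, 10 probes were tested, 1 was called higher and 0 lower, and the median was 0.78. The called gene, PRSS22, encodes a tryptase-like protease of airway epithelium. Its signal went from 2200 to 6370 in HSC-3 cells, 1580 to 3860 in KON cells, and 2470 to 5650 in Ca9-22 cells, and the mean over the lines was 1.34 ± 0.18 on the log2 scale (SD, n = 3 cell lines; limma adjusted p = 0.0247). One of 2 tested probes of TMPRSS13, a membrane-bound serine protease, was over 2-fold higher in all 3 lines without being called (limma adjusted p = 0.06), and the other probe had a mean log2 fold change of 0.07.

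Among substrates and receptors of kallikreins, 5 probes were tested, with 1 called higher and 1 lower and a median of 0.30. F2RL1 encodes PAR2, the G protein-coupled receptor that several trypsin-like kallikreins activate by cutting its extracellular end. It went from 3560 to 1630 in HSC-3 cells, 2590 to 1220 in KON cells, and 1060 to 487 in Ca9-22 cells, lower in each line by nearly the same factor (mean log2 fold change, -1.12 ± 0.02, SD, n = 3 cell lines; limma adjusted p = 0.0257). CDH1, the epithelial cadherin, was higher in each line (mean log2 fold change, 2.92 ± 0.21, SD, n = 3 cell lines; limma adjusted p = 0.0227). None of the SPINT1, SPINT2, PRSS22, and F2RL1 calls held in limma when any 1 of the lines was left out, and limma called 0 of the 19956 probes without HSC-3 or without KON, and 244 without Ca9-22. CDH1 was called without Ca9-22 (adjusted p = 0.0467 in limma). Filaggrin (FLG), a barrier protein of cornified epithelium, did not enter the fit because KON was below background on both arrays for all 3 of its probes. In Ca9-22 the probe above background on 3 arrays went from 62.6 to 908 (14.5-fold higher), and in HSC-3 from a dim 9.55 to 522 (at least 26.6-fold). FLG is also named after its values were seen. Other Kazal-type inhibitors were mostly dark, with 1 of 8 genes above background on all arrays (SPINK7, limma adjusted p = 0.377).

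**Figure D4:**
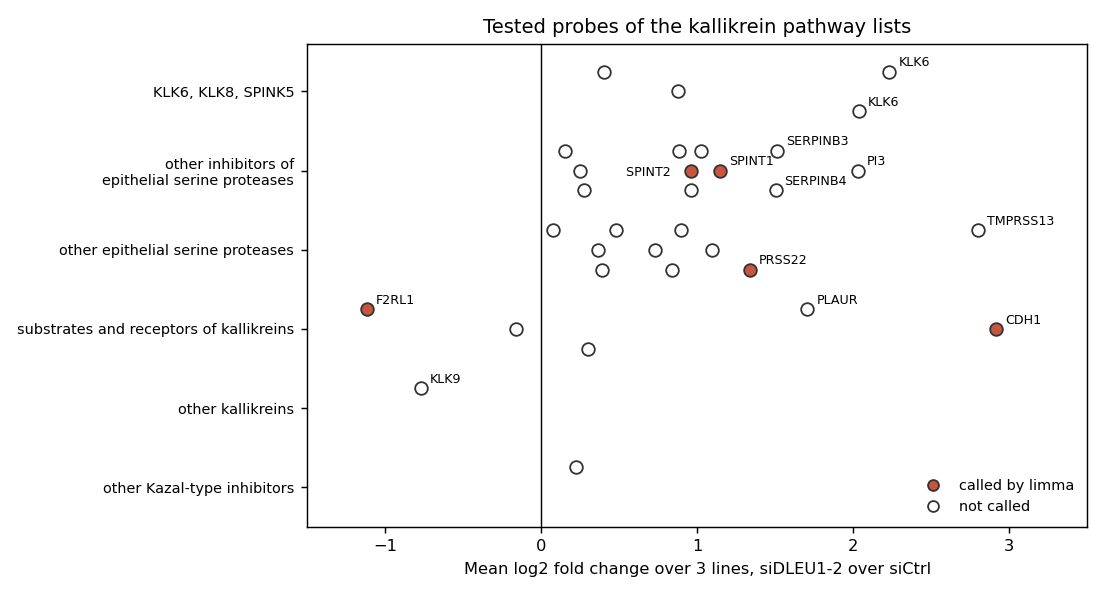
Mean log2 fold change over the 3 lines (siDLEU1-2 over siCtrl) of each tested probe of KLK6, KLK8, SPINK5, and the lists of related kallikreins, proteases, inhibitors, and substrates (cell type markers are not drawn), with filled points for probes that limma called at an adjusted p below 0.05. The 4 probes of KLK6, KLK8, and SPINK5 are all open, the called probes of the lists drawn are SPINT1, SPINT2, PRSS22, CDH1, and F2RL1, and only F2RL1, KLK9, and 1 F2R probe lie left of 0.

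Of 13 tested probes for the 10 squamous epithelial markers, limma called 1 higher (CDH1) and 6 lower (TP63, KRT6A, DSG3, SFN, and both PKP1 probes). The summed scaled signal of the list went from 337000 to 192000 in HSC-3, 136000 to 112000 in KON, and 106000 to 93600 in Ca9-22. That sum follows the brightest probes and is not a mean change of the markers. SFN alone went from 133000 to 83100 in HSC-3, 56900 to 27800 in KON, and 69300 to 42000 in Ca9-22. CDH1 and EPCAM were higher in all 3 lines. The called markers that were over 2-fold lower in all 3 lines were TP63 (mean log2 fold change, -2.46), DSG3 (-2.12), PKP1 (-1.49 for both probes), and KRT6A (-1.33). With normexp these means were -1.40 for TP63, -0.90 and -0.94 for the PKP1 probes, which is under 2-fold, -1.89 for DSG3, and -1.40 for KRT6A. Of the 7 calls, those of CDH1, TP63, and DSG3 held in limma without Ca9-22 and none held without HSC-3 or without KON, and SFN was not called with quantile normalization (adjusted p = 0.051). Among the fibroblast markers, COL1A1 was called higher (mean log2 fold change, 1.46, limma adjusted p = 0.0423, and from 0.0687 to 0.14 when any 1 line was left out). The summed signal of the list was 186 to 222 after siCtrl and 418 to 699 after siDLEU1-2. Most of that sum was COL1A1 itself, at 150 to 191 after siCtrl and 362 to 635 after siDLEU1-2. For leukocyte and endothelial markers, 3 probes were tested, limma called 0, and 2 (CD14 and CDH5) had an unadjusted p below 0.05, as did 29.5% of all probes. The list had summed signals of 336 to 11600 after siCtrl and 621 to 15500 after siDLEU1-2, with CD14 at 11300 and 15200 in HSC-3. The defining leukocyte marker PTPRC reached 34.2 at most. The part of these markers in the kallikrein values was not tested.

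Genes with a pattern most like that of KLK6 and KLK8, the kallikreins above background on all arrays, were sought among 15445 probes with a gene symbol. The log2 values of each probe were centered on their own mean and correlated with the mean profile of these genes, which holds both the differences between lines and the changes after knockdown. The 5 highest Pearson correlations, over 6 arrays from 3 lines, were those of ISYNA1 (0.998), RASGRP2 (0.997), STK24 (0.991), TMEM191B (0.989), and RNF10 (0.985). KLK6 and KLK8 do not share an order of lines, since the mean level of KLK6 was highest in KON, with no called difference, and that of KLK8 was lowest there, and between lines the mean profile follows KLK8. These correlations are descriptions chosen as the highest of many, and the 6 arrays share 3 lines. RASGRP2 went from 560 to 3700 in HSC-3 cells, 29.7 to 155 in KON cells, and 537 to 813 in Ca9-22 cells, lowest in KON and least changed in Ca9-22. STK24 followed the same order at a smaller size, with log2 fold changes of 0.20 for HSC-3, 0.16 for KON, and 0.02 for Ca9-22. None of the 5 was called by limma (adjusted p from 0.0714 to 0.587).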

How the data were processed

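HSC-3, KON, and Ca9-22 cells were transfected with siDLEU1-2 or siCtrl, and 100 ng of total RNA collected after 72 h was labeled and hybridized to 1 one-color array per line and siRNA (SurePrint G3 Human GE). The files that the authors deposited come from Feature Extraction 10.7, per the labels, and the values used here are the processed signal, an intensity from which the software has subtracted the background. The deposited series table holds the same intensity within 0.497% and was used as an alternative. The methods name GeneSpring GX for the study's analysis, and its normalization and filter are not given in the sources used here.

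Each array's 75th percentile was subtracted from its log2 processed signals, outlier spots were left out, and spots of a probe were averaged. The percentile signal was 200 to 257, between 43.0% and 45.7% of probes were well above background, and 0 spots were saturated. The number of arrays limits the precision. Models with cell line and siRNA as terms were fitted in limma 3.58.1 (R 4.3.3), with eBayes and Benjamini-Hochberg adjustment. For the knockdown, a probe had to be well above background on either array of every line (19956 probes), and for differences between lines, on any 2 of the 6 arrays (24517 probes). With 3 lines, the smallest two-sided p of an exact sign-flip test is 0.25, and none was run. Samples of a line form a pair, since both arrays come from the same line, and their deviations from the siRNA means correlated at 0.81 to 0.83. A group with no array well above background is given as a bound, computed against the lowest signal well above background on each of its arrays, or the probe's own signal if higher.

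The genes and lists were chosen with earlier results of these data known. The text names every member probe, up to 4 genes per list that limma called and that changed over 2-fold the same way in all 3 lines, the 5 genes with the most similar profile, genes within 250 kb of the cluster, and DLEU1, and says where a gene was named after its values were seen, which also applies to SPINT2, SFN, COL1A1, TMPRSS13, and the marker genes given as background checks. The scripts were tested on simulated data. Alternatives were quantile normalization, the median of each array, normexp background correction (offset 50), other filters on dim probes, a detection floor, the series table, each line left out, no block for line, the methods' t-test, other fold thresholds, and the mean of a gene's probes. The filter of any 2 of the 6 arrays for the knockdown and the line-by-line values under these settings were added after the data were seen. Promoter sequences and gene names were matched by symbol to RefSeq (GRCh38.p14). Protein sequences were not used here.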

Additional observations from a re-analysis of the deposited data

Results flagged for a closer look

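The range of the log2 fold change of KLK11 between HSC-3 and Ca9-22 was 1.16, because its probe was higher after siDLEU1-2 in HSC-3 and lower in Ca9-22. The same range for the 3′ SPINK5 probe was 2.24, between a lower signal in HSC-3 and a higher signal in Ca9-22. In both cases the lines moved in opposite directions with 1 array per line and siRNA, and the difference between the lines was not tested.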

How the results depend on the processing

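The count of kallikrein and inhibitor probes called by limma after the knockdown was 0 under the 14 alternatives run, including the methods' t-test before and after adjustment and the fit with no replicate block. It could only be 0 in the settings that called 0 of all probes. These were no filter on dim probes, any 2 of the 6 arrays, no replicate block, without HSC-3, without KON, and the adjusted t-test. The smallest adjusted p among the kallikrein and inhibitor probes was 0.0985 in the limma fit reported and ranged from 0.0505 (limma without Ca9-22) to 0.761 (the t-test). The count over 2-fold in all 3 lines was 0, became 2 (KLK5 and KLK10) with no filter on dim probes and likewise 2 with the filter of any 2 of the 6 arrays, and ranged from 0 to 2 when a line was left out, the 2 being both KLK6 probes without Ca9-22. The 3′ SPINK5 probe had a mean of 0.41, which was -0.22 without Ca9-22 and 0.90 without HSC-3. The 14 calls between lines became 2, both KLK8, when only probes well above background on all 6 arrays were kept, which tested 4 of the 10 probes, and were 13 to 15 under the other alternatives. Of the called differences between lines that were still tested, 2 lost their call: KLK13 in HSC-3 against Ca9-22 with the detection floor, and the middle SPINK5 probe in KON against Ca9-22 with normexp and with no filter. No call of a list gene or marker held in limma with no filter on dim probes, with the filter of any 2 of the 6 arrays, or with no replicate block, where limma called 0 of 50544, 0 of 24517, and 0 of 19956 probes (6816, 6076, and 1357 at an unadjusted p of 0.05). Signals near the detection limits of 16.3 to 24.0 restrict what KON shows for KLK5, KLK7, KLK11, and KLK13.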
